A study of Mus musculus with 60 samples.

Results

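NRF2, encoded by Nfe2l2, is a transcription factor that raises the expression of antioxidant genes when a cell meets oxidants or electrophiles. In resting cells its partner KEAP1 holds it in the cytoplasm and hands it to a ubiquitin ligase for degradation. When NRF2 escapes, it pairs with a small MAF protein and binds antioxidant response elements near genes for glutathione synthesis, thioredoxin recycling, quinone reduction and heme breakdown. The 10 genes described here are Nfe2l2 and Keap1 and 8 genes of these antioxidant systems (Nqo1, Hmox1, Gclc, Gclm, Srxn1, Txnrd1, Slc7a11 and Gpx4). They were named as a list and not by a rule on their measured values, though with earlier results of these data known. All 10 were found by symbol among the 47729 mouse genes of the count table.

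PyMT-Bo1 is a mammary tumor line of C57BL6 mice driven by the polyoma middle T oncogene. Its cells, labeled with Thy1.1, a nuclear mApple fusion and luciferase with eGFP, were stained with the membrane dye DiD and injected into the heart of wild-type young adult female C57BL6 mice. Cells from the pooled femurs and tibias of 5 mice were enriched with beads against Thy1.1 and stained for Thy1.1 and the leukocyte protein CD45. Live cells without CD45 were sorted 1 per well, at the same time after injection. The groups were 32 DiD+ cells (DiD intensity High, called dormant by the study, since a cell that does not divide keeps its dye) and 28 DiD- cells (DiD intensity Low, called proliferative). Both groups came from the same line and the same pool of bones, and neither had a further treatment. Which mouse a cell came from is not labeled. Each group is therefore 1 sample, there is no replicate check of any difference, and no test was made.

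The depth, as counts on mouse genes, was 2276789 to 7794219 in DiD+ cells (median 4653711) and 2624405 to 6199108 in DiD- cells (median 4440161). Levels are given as CPM, counts scaled to the total on mouse genes, either in 1 cell or over the summed counts of a group. Ratios are log2 of DiD+ over DiD- after 1 CPM was added to both levels, and a gene with 10 CPM or more in either group was called when it differed by 2-fold or more. Intervals are exact Poisson intervals for levels and exact binomial (Clopper-Pearson) intervals for shares of cells, both at 95%. The reads carry no molecular identifiers, so intervals and limits cover counting error only. The epithelial keratin Krt8 had a count in all 60 cells and Krt18 in 30 DiD+ and 28 DiD- cells, whereas Epcam, Krt7 and Krt19 had no count in any cell and Cdh1 had one in 1 DiD+ cell.

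Some wells stood apart by their cell type markers. DiD+ cells 19, 21, 24, 30, 37 and 88 and DiD- cell 84 held at least 7 of 13 macrophage or monocyte markers at 10 counts or more, and are called macrophage-marker wells below. All 13 markers were seen in both groups, and their summed level ran from 0 to 19056 CPM in DiD+ cells (median 44.5) and from 0 to 1672 CPM in DiD- cells (median 21.3). At least 4 of 7 erythroid markers were found in DiD+ cells 19, 30 and 37 and in DiD- cells 44, 84 and 86. DiD+ cell 29 held 4 of 5 megakaryocyte or platelet markers and 0 of the 13 macrophage markers. Leaving out cell 29 was not planned and was chosen after its Hmox1 level was seen. Ratios that rest on these wells are given with and without them. The search below for the genes most like each gene used all 60 cells only.

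Antioxidant response elements were searched for on both strands of the promoters held by RefSeq for GRCm38.p6 (250 bases before to 50 after each start). Of the 10 genes, 8 matched, with 13 promoters in all, and Hmox1 and Gclc were not searched. The core element TGACNNNGC was found at Nfe2l2, Gclm, Srxn1 and Txnrd1, that is in 4 of the 13 promoters, beside 12.4% of all 32851 promoters. The extended form TGANTCAGC, which contains the AP-1 motif TGANTCA and overlaps the core form where its free base is C, was found at Srxn1 alone of the 8 genes, beside 1.19% of all promoters. The 4 matches before a start site are printed here with their flanks, since NRF2 and small MAF proteins are known to act through elements of this form, and the capitals mark the matched element. The fifth match lay after the start of Srxn1. A match of letters is a description and not a bound site.
Nfe2l2, chr2:75704885-75704913, minus strand: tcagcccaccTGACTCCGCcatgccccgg
Gclm, chr3:122245413-122245441, minus strand: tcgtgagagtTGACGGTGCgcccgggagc
Txnrd1, chr10:82859104-82859132, minus strand: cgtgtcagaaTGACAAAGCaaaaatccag
Srxn1, chr2:152105469-152105497, plus strand: aaattcacccTGAGTCAGCggccgggcgc

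Of the 10 genes, Hmox1 was the only one at least 2-fold higher in DiD+ cells and 0 were at least 2-fold lower. The other genes differed by less than 2-fold between the groups or were hardly detected. In all, 8 of the 10 reached 10 CPM in a group, and Nqo1 and Slc7a11 did not. Over the 8814 mouse genes that reached 10 CPM, 6.38% were at least 2-fold higher and 3.18% at least 2-fold lower in DiD+ cells, and 1 of 8 is near that background. The median log2 ratio of the 9 genes with any count was 0.13, and that of the 8 genes that reached 10 CPM was 0.092. Over all genes tested the median was -0.0041 (quartiles -0.30 and 0.32). Without the macrophage-marker wells the median of the 9 genes was 0.16, beside 0.014 over all genes. Hmox1 was again the only gene called, and the background over 8725 genes was 5.86% higher and 3.29% lower. Scaling each cell by its spike-in counts instead moved the median of all genes to -0.41 and the background to 2.64% higher and 8.68% lower. Relative to that shift the median of the 9 genes was 0.10. The log2 ratio of Hmox1 was 1.47 with spike-in scaling, or 1.87 relative to the shift.

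**Figure D1:**
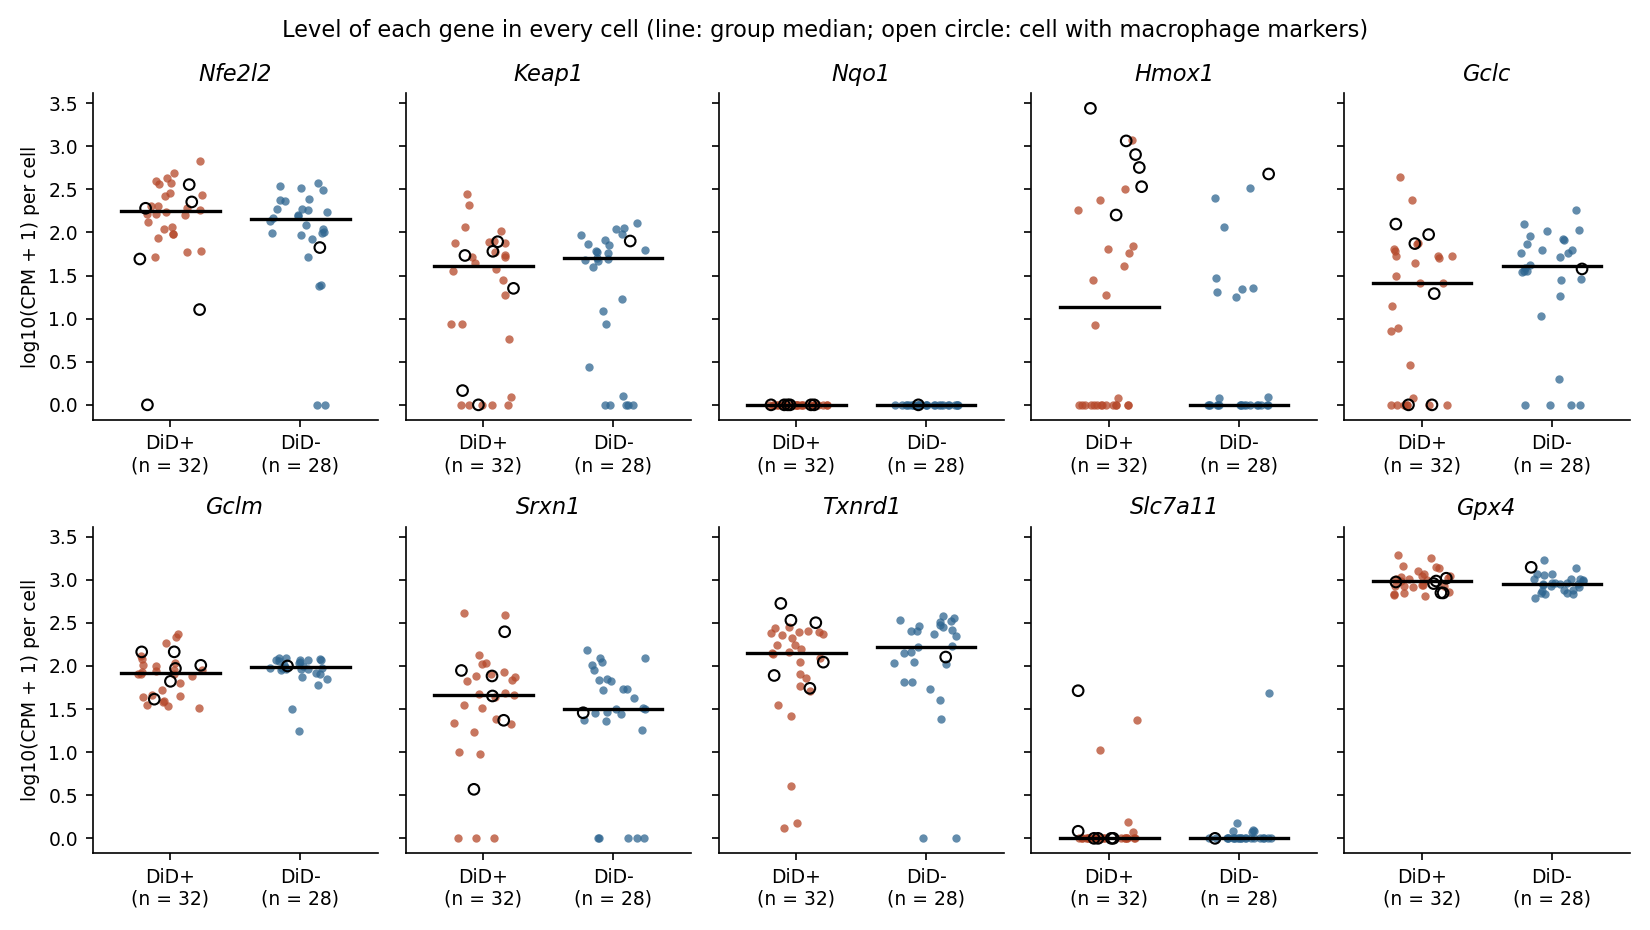
Level of each of the 10 genes in every cell, as log10(CPM + 1), for 32 DiD+ and 28 DiD- cells, with a line at the group median and open circles for the 7 macrophage-marker wells. Gpx4 and Gclm have counts in every cell, Nqo1 in none, and for each gene with counts the ranges of the groups overlap, with the highest Hmox1 levels mostly in open circles.

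Compared per kilobase of exon, the levels of the 10 genes spanned a wide range and kept much of their order between the groups. Gpx4 was highest in both groups, at 592 CPM per kb in DiD+ and 539 in DiD- cells. In DiD+ cells Hmox1 (153 CPM per kb), Nfe2l2 (53.01), Srxn1 (27.7) and Txnrd1 (22.8) followed in this order. In DiD- cells the order was Nfe2l2 (40.6), Txnrd1 (25.9), Hmox1 (23.6) and Srxn1 (17.4), so that Hmox1 took rank 2 in the former and rank 4 in the latter. Gclm, Gclc and Keap1 came next in that order in both groups, between 9.95 and 14.8 CPM per kb. Slc7a11 lay far below at 0.184 and 0.132 CPM per kb, and Nqo1 was last. Over single cells the quartile ranges of neighbours in this order overlapped, except below Gpx4 and below Keap1 in both groups and between Txnrd1 and Hmox1 in DiD- cells. The rank of Hmox1 in DiD+ cells came from few cells, since its median there was 7.17 CPM per kb, below that of Nfe2l2 (46.6), Txnrd1 (19.9), Srxn1 (16.1), Gclm (13.1) and Keap1 (8.49).

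The regulators differed little between DiD+ and DiD- cells. Nfe2l2 (ENSMUSG00000015839, GRCm38 chromosome 2, 75675513 to 75704641, minus strand) had a count in 31 of 32 DiD+ and 26 of 28 DiD- cells. Its level in single DiD+ cells ran from 0 to 669 CPM with a median of 177, and in DiD- cells from 0 to 369 CPM with a median of 142. The DiD+ cells thus lay somewhat higher, 20 of 32 of them above the DiD- median and 5 above the highest DiD- cell. The group levels were 201 CPM (interval 199 to 204) and 154 CPM (interval 152 to 156), a log2 ratio of 0.38 that was -0.039 with spike-in scaling, or 0.37 relative to the shift of all genes. Leaving out 1 cell kept it between 0.28 and 0.48. The macrophage-marker wells were not where Nfe2l2 was high: they held 13.3% of the DiD+ counts of Nfe2l2 and 19.9% of all DiD+ counts, and without them the log2 ratio was 0.48.

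Keap1 (ENSMUSG00000003308, chromosome 9, 21229730 to 21239361, minus strand), which encodes the repressor of NRF2, was detected in 26 DiD+ and 23 DiD- cells. Single DiD+ cells ran from 0 to 276 CPM (median 39.8) and DiD- cells from 0 to 127 CPM (median 49.0). The groups overlapped almost wholly, and the medians and the summed levels (48.4 CPM for DiD+, 46.7 CPM for DiD-) differed in opposite directions. The log2 ratio was 0.050, and it lay between -0.13 (without DiD+ cell 68) and 0.14 (without DiD- cell 45) when 1 cell was left out. With spike-in scaling it was -0.66, or -0.25 relative to all genes. The library kit does not mark strand, so reads of the antisense gene Gm16754, listed at 0.0342 and 0.285 CPM, cannot be told apart from those of Keap1.

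Nqo1 (ENSMUSG00000003849, chromosome 8, 107388225 to 107403206, minus strand) encodes a quinone reductase that is widely used as a readout of NRF2 activity. It had 0 counts in all 60 cells, before rounding as well. With the limit for a count of 0 set at 3 counts (a fixed rule, not one of the intervals above), its level was at most 0.0113 CPM over the 265565042 counts of all cells, up to 0.0205 CPM over DiD+ and 0.0251 CPM over DiD- counts alone, and the same 3 taken as cells gives a share of at most 5.0% of the 60 cells. No ratio between the groups can be given for it.

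Hmox1 (ENSMUSG00000005413, chromosome 8, 75093621 to 75100589, plus strand) encodes heme oxygenase 1, which breaks heme down to biliverdin, iron and carbon monoxide and is also high in macrophages that clear red cells. Hmox1 was detected in 18 of 32 DiD+ cells, a share of 56.2% (interval 37.7% to 73.6%). In DiD- cells it was detected in 11 of 28, a share of 39.3% (interval 21.5% to 59.4%). In single DiD+ cells its level ran from 0 to 2751 CPM with a median of 12.6, and in DiD- cells from 0 to 475 CPM with a median of 0. Most cells of either group were thus low or without a count, the ranges overlapped, and 5 DiD+ cells lay above the highest DiD- cell. The group levels were 267 CPM (interval 265 to 270) and 41.2 CPM (interval 40.1 to 42.4). The DiD+ level was 6.48-fold the DiD- level as they stand, and the log2 ratio with 1 CPM added to both was 2.67.

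A few wells held most of the Hmox1 counts. The 6 DiD+ macrophage-marker wells held 75.5% of the DiD+ Hmox1 counts and 19.9% of all DiD+ counts, at 1012 CPM beside 81.8 CPM in the other 26 DiD+ cells. Each of these 6 wells had Hmox1, from 158 CPM in cell 30 to 2751 CPM in cell 19. In DiD- cells the single such well, cell 84, was also the highest, at 475 CPM beside 31.01 CPM in the other 27 cells. Without the 7 wells the log2 ratio was 1.37, with a count in 12 of 26 DiD+ and 10 of 27 DiD- cells and a median of 0 in both groups. Without the wells with erythroid markers it was 1.97, and without both kinds 1.28.

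Of the remaining DiD+ cells, cell 29, the well with platelet markers, was far above the others at 1166 CPM, and cells 17, 36 and 22 followed at 319, 238 and 183 CPM. The highest remaining DiD- cells were cell 89 at 329 CPM, cell 72 at 252 CPM and cell 71 at 114 CPM. Without cell 29 as well, an alternative chosen after its Hmox1 level was seen, DiD+ cells were at 44.02 CPM and DiD- cells at 31.01 CPM, giving a log2 ratio of 0.49, and 0 of the 10 genes were called. Each of the other 52 cells could be left out in its place with the log2 ratio staying at 1.17 or more. With all 60 cells as the start, leaving out 1 cell gave 2.01 (without DiD+ cell 19) to 3.12 (without DiD- cell 89).

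**Figure D2:**
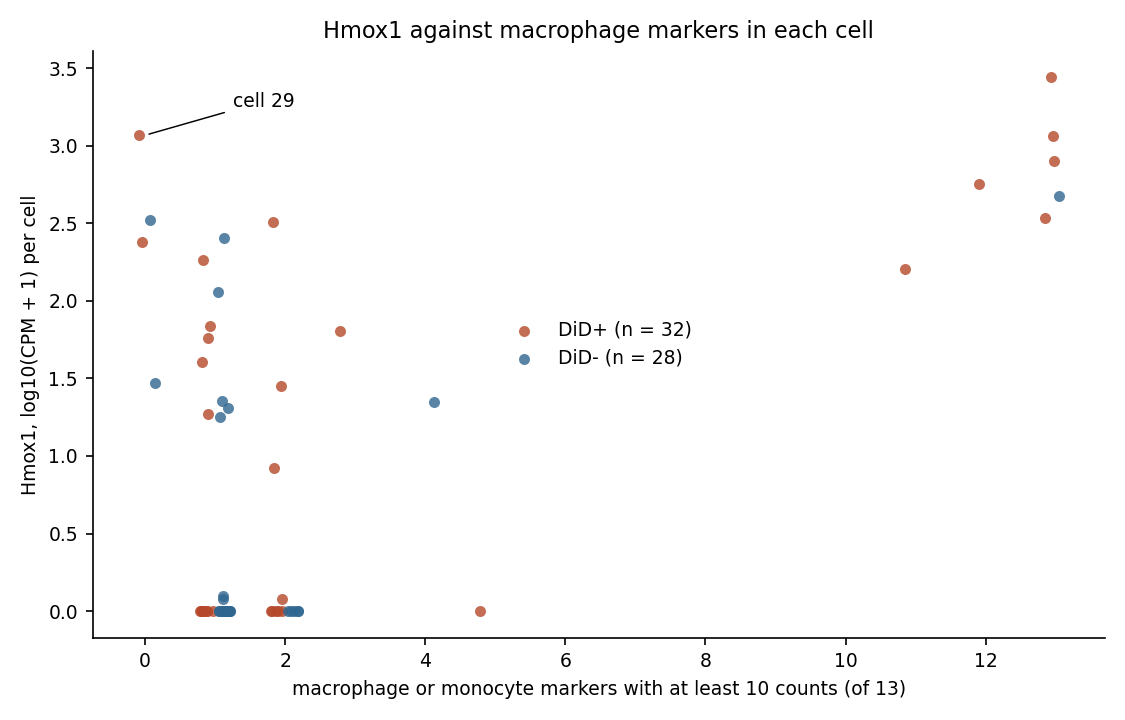
Hmox1 level of each cell, as log10(CPM + 1), against the number of 13 macrophage or monocyte markers with at least 10 counts in that cell, for 32 DiD+ and 28 DiD- cells (points are moved slightly sideways so that they do not hide each other). The 7 wells with 11 to 13 markers all have Hmox1, and cell 29 is high with 0 markers.

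Gclc and Gclm encode the catalytic and the modifier subunit of glutamate-cysteine ligase, the first enzyme of glutathione synthesis. Their summed levels were nearly equal between the groups. Gclc (ENSMUSG00000032350, chromosome 9, 77754535 to 77794485, plus strand) was detected in 23 DiD+ and 24 DiD- cells and ran from 0 to 442 CPM (median 24.8) in DiD+ and from 0 to 179 CPM (median 39.3) in DiD- cells. DiD+ cell 38 held 26.95% of the DiD+ counts, so that the log2 ratio of -0.027 (51.9 over 52.9 CPM) was -0.43 without it, and 0.14 without DiD- cell 26. With spike-in scaling the log2 ratio of Gclc was -0.73, or -0.32 relative to all genes, the lowest of the 9 genes.

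Gclm (ENSMUSG00000028124, chromosome 3, 122245557 to 122270732, plus strand) had a count in all 60 cells. It ran from 31.2 to 233 CPM (median 82.5) in DiD+ and from 16.6 to 123 CPM (median 95.3) in DiD- cells. Over cells the SD was 51.6 CPM for DiD+ and 25.8 CPM for DiD-, and 6 DiD+ cells were above the highest DiD- cell while 11 of 32 were above the DiD- median. The lowest cell was a DiD- cell. The group levels were 91.7 CPM (interval 90.1 to 93.2) and 93.3 CPM (interval 91.6 to 95.0), a log2 ratio of -0.025 that stayed between -0.11 and 0.011 when 1 cell was left out. With spike-in scaling it was -0.53, or -0.13 relative to all genes. Gm17494, on the opposite strand within Gclm, was listed at 7.28 and 8.98 CPM and cannot be told apart from it by strand.

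Srxn1 and Txnrd1 act in thiol recycling, sulfiredoxin on overoxidized peroxiredoxins and thioredoxin reductase 1 on cytosolic thioredoxin, and their ratios had opposite signs. Srxn1 (ENSMUSG00000032802, chromosome 2, 152105516 to 152111376, plus strand), the gene with the extended element printed above, was detected in 29 DiD+ and 23 DiD- cells. It ran from 0 to 412 CPM (median 45.4) in DiD+ and from 0 to 151 CPM (median 31.02) in DiD- cells, with 21 of 32 DiD+ cells above the DiD- median. The group levels were 78.2 CPM (interval 76.8 to 79.7) and 49.1 CPM (interval 47.8 to 50.4), a log2 ratio of 0.66 that was -0.069 with spike-in scaling, or 0.34 relative to all genes. It was the second highest of the 9 ratios, 0.61 without the macrophage-marker wells, and between 0.43 (without DiD+ cell 36, which held 18.0% of the DiD+ counts) and 0.78 when 1 cell was left out. It stood above 88.2% of all tested genes without passing 2-fold.

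Txnrd1 (ENSMUSG00000020250, chromosome 10, 82833951 to 82897712, plus strand) was detected in 32 DiD+ and 26 DiD- cells, from 0.335 to 530 CPM (median 141) and from 0 to 374 CPM (median 167). The group levels were 161 CPM (interval 159 to 164) and 183 CPM (interval 181 to 186), a log2 ratio of -0.18. The 6 DiD+ macrophage-marker wells held 29.9% of the DiD+ Txnrd1 counts, and without the 7 wells the log2 ratio was -0.38. With all cells as the start, the log2 ratio stayed below 0 without any 1 cell (-0.30 to -0.12) and under each other scaling. With spike-in scaling it was -0.49, but -0.080 relative to all genes.

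Slc7a11 and Gpx4 belong to the defense against lipid peroxides, the former as the cystine carrier of system xc- that feeds glutathione synthesis and the latter as the selenoenzyme that reduces lipid hydroperoxides and restrains ferroptosis. Slc7a11 (ENSMUSG00000027737, chromosome 3, 49892526 to 50443614, minus strand) was hardly detected, with a count in 6 cells of each group and 374 counts in DiD+ and 220 counts in DiD- cells. DiD+ cell 21, a macrophage-marker well, held 237 of the former, and DiD- cell 89 held 214 of the latter. Of the other 10 cells with a count, DiD+ cells 41 and 31 had 111 and 22 counts and 8 had 1 or 2. The levels were 2.56 and 1.84 CPM, of which cell 21 held 63.4% of the DiD+ and cell 89 97.3% of the DiD- counts. The log2 ratio of 0.33 was -0.53 without cell 21 and 1.76 without cell 89. Without all macrophage-marker wells it was -0.42.

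Gpx4 (ENSMUSG00000075706, chromosome 10, 80047166 to 80056439, plus strand) was the most evenly expressed of the 10 genes. Every cell had a count, from 640 to 1941 CPM (median 960) in DiD+ and from 616 to 1679 CPM (median 900) in DiD- cells, and the groups overlapped over nearly their whole range. The group levels were 1020.5 CPM (interval 1015 to 1026) and 930 CPM (interval 924 to 935), a log2 ratio of 0.13 that stayed between 0.095 and 0.16 when 1 cell was left out. With spike-in scaling it was -0.31, or 0.10 relative to all genes.

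**Figure D3:**
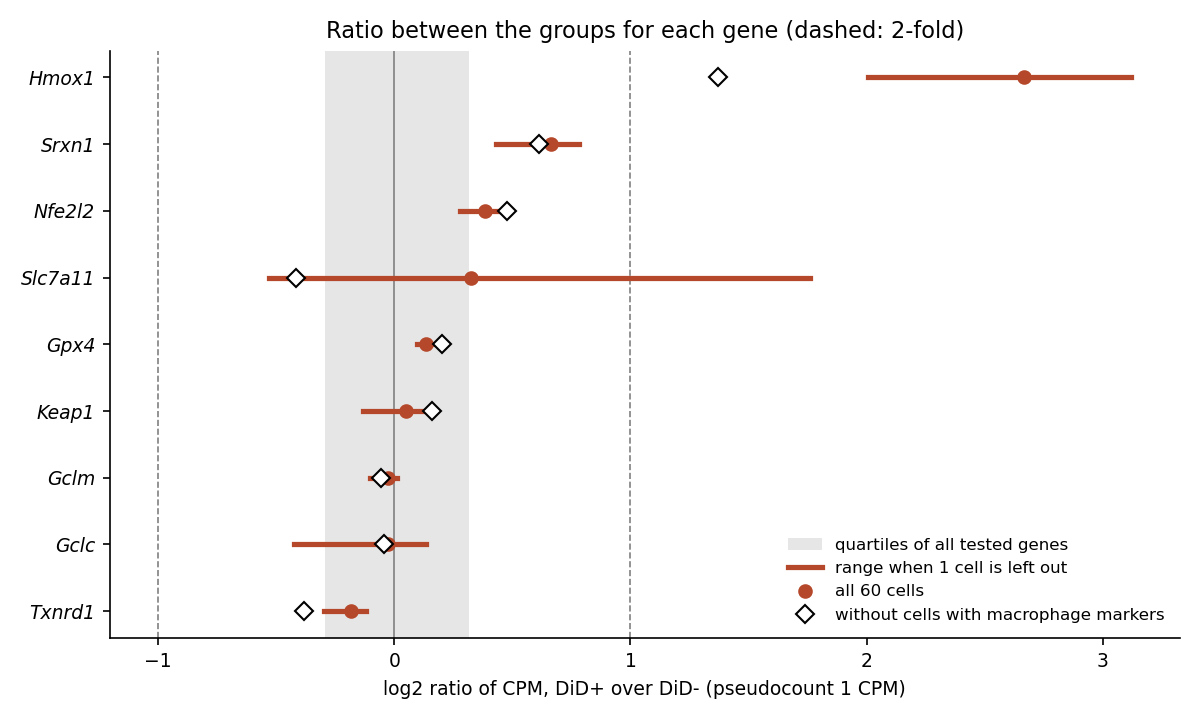
Log2 ratio of DiD+ over DiD- for the 9 genes with counts, from all 60 cells (filled circles), with the range when 1 cell is left out (lines) and the value without the 7 macrophage-marker wells (open diamonds); the gray band spans the quartiles of all tested genes and the dashed lines mark 2-fold. Hmox1 moves from 2.67 to 1.37 without these wells, and the lines of Slc7a11, Keap1, Gclc and Gclm cross 0.

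Over all cells the levels of these genes were weakly related to each other. Over the 60 cells the Pearson r of log2(CPM + 1) for the 36 pairs of the 9 genes ran from -0.40 (Txnrd1 and Gpx4, Spearman rho -0.44) to 0.30 (Hmox1 and Slc7a11, rho 0.17), with a median of 0.0096. Nfe2l2 had an r of -0.32 with Gclc, -0.23 with Gclm and 0.18 with Srxn1. For the last pair the rho was 0.33, and without the macrophage-marker wells the r was 0.34 and the rho 0.46. Within DiD+ cells the r ran from -0.41 (Txnrd1 and Gpx4) to 0.45 (Srxn1 and Txnrd1, rho 0.35). Within DiD- cells it ran from -0.45 (Gclm and Slc7a11, rho 0.21) to 0.54 (Gclm and Txnrd1, rho 0.43). The median was -0.019 within DiD+ cells, -0.057 within DiD- cells and -0.015 without the macrophage-marker wells. These are descriptions over cells that share a sort and a sequencing run, and weak correlations of genes with many zeros carry little. Against the summed level of 16 proliferation genes, Hmox1 had the strongest relation of the 9 genes, an r of -0.49 (rho -0.47). It was -0.48 without the macrophage-marker wells, and Gclm had an r of 0.26. These r values pool both groups, which differ in Hmox1 and in the proliferation genes, and were not computed within a group.

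**Figure D4:**
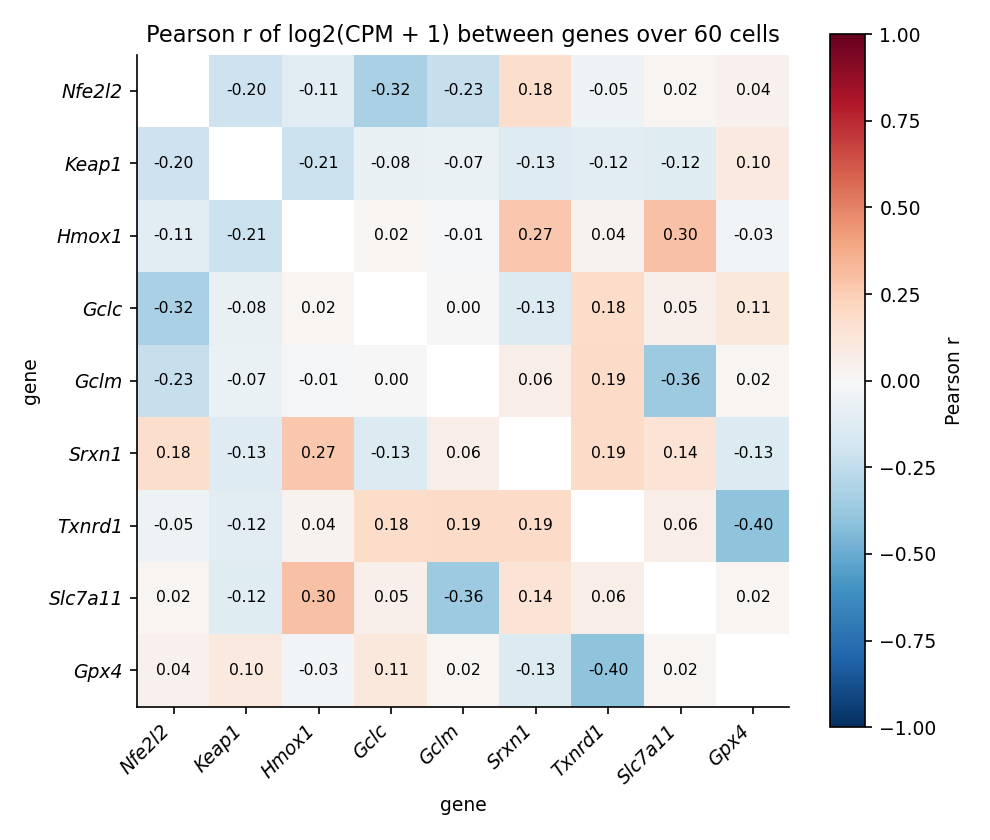
Pearson r of log2(CPM + 1) over the 60 cells for each pair of the 9 genes with counts, from blue (negative) to red (positive). No pair passes 0.30 on the positive side, and the lowest value is -0.40 for Txnrd1 and Gpx4.

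The genes most like each of the 9 over the 60 cells were taken from 8379 genes that reached 10 CPM and were detected in 20 cells or more. This search was not repeated without the macrophage-marker wells. Hmox1 was most like the ferritin light chain gene Ftl1 (r 0.69, rho 0.63), its copy Ftl1-ps1 (r 0.68), with which reads may be shared, and the apolipoprotein gene Apoe (r 0.65), which is abundant in macrophages and stood at 1393 CPM over DiD+ cells and 49.1 CPM over DiD- cells. Gpx4 was most like the glutathione transferase gene Gstp1 (r 0.65, rho 0.55), then Cdk2ap2 (r 0.58) and Ndufa6 (r 0.57). Keap1 was most like Amotl1 (r 0.60, rho 0.54), followed by Pgd (r 0.45), an enzyme of the pentose phosphate pathway, and Ppp4r1 (r 0.44). Txnrd1 was most like Traf7 (r 0.60, rho 0.27), Ubqln1 (r 0.59, rho 0.51) and Caprin1 (r 0.56, rho 0.34).

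For Nfe2l2 the rank measure was far below the linear one. Nfe2l2 had an r of 0.69 with Nit2, 0.67 with Slc25a11 and 0.61 with Bcl10, but the rho of these was 0.15, 0.24 and 0.19. Srxn1 was nearest to Crip2 (r 0.50), Aldoa (r 0.47) and Ctsa (r 0.43), Gclm to Slc25a5 (r 0.49) and Tfdp1 (r 0.46), and Gclc to Ankrd26 (r 0.44), Rev1 (r 0.43) and Pbdc1 (r 0.41). For Slc7a11 the nearest, Sparc, had an r of 0.47 and a rho of 0.026, followed by Rab5if (r 0.44) and C1qtnf1 (r 0.44).

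Genes around the pathway were read by list, and the lists were written with earlier results of these data known. Counts past 2-fold over all cells stand beside the backgrounds of 6.38% higher and 3.18% lower given above. Those without the macrophage-marker wells stand beside 5.86% higher and 3.29% lower. Counts of ratios above or below 0 have no such background here, and the median over all tested genes was -0.0041. Of 16 partners and regulators of NRF2, 12 reached 10 CPM, of which 1 was at least 2-fold higher and 1 at least 2-fold lower, with a median log2 ratio of 0.0035. Sesn1, which encodes a stress-induced sestrin, was at 211 CPM over DiD+ cells and 64.96 CPM over DiD- cells (log2 ratio 1.68, and 2.004 without the macrophage-marker wells). Palb2, which encodes a BRCA2 partner that can bind KEAP1, was at 2.75 and 14.3 CPM (log2 ratio -2.03), with a count in 6 and 10 cells. DiD- cell 79 held 34.8% of its DiD- counts, and without that cell the log2 ratio was -1.51.

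Of 29 further NRF2 target genes, 26 reached 10 CPM. Of these, 5 were at least 2-fold higher in DiD+ cells, 0 were lower, 21 had a ratio above 0 and the median was 0.43 (0.30 with 3 higher without the macrophage-marker wells). Aldh3a1, an aldehyde dehydrogenase gene, was at 42.2 CPM over DiD+ cells and 6.85 CPM over DiD- cells, with a count in 21 and 5 cells and a log2 ratio of 2.46, or 2.83 without these wells. Osgin1, a growth inhibitor gene induced by oxidative stress, had a ratio of 1.20 with all cells and 1.24 without the wells, but 0.92, under 2-fold, without DiD+ cell 82. The microsomal glutathione transferase gene Mgst1 and the biliverdin reductase gene Blvrb had ratios of 1.34 and 1.30 that were 0.72 and 0.82 without them. Gstm1, a glutathione transferase gene named after its value was seen, was the other one past 2-fold, at 1.12 with all cells, 1.27 without the wells and 0.90, under 2-fold, without DiD+ cell 43.

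Of 26 glutathione and thioredoxin enzymes, 23 reached 10 CPM and 3 were at least 2-fold higher, with a median of 0.087. These were the extracellular superoxide dismutase gene Sod3 (34.2 and 5.31 CPM, log2 ratio 2.48), the thioredoxin inhibitor gene Txnip (136 and 46.7 CPM, 1.53) and Txnrd3 (23.5 and 8.97 CPM, 1.30), and without the macrophage-marker wells they were at 2.76, 1.63 and 1.40, while Txnrd2 (named after its value was seen) went from -0.80 to -1.06. Txnrd3 was at 0.98, under 2-fold, without DiD+ cell 68. Of 16 cystine uptake and ferroptosis genes, 14 reached 10 CPM, 2 were at least 2-fold higher and 1 lower, and the median was 0.15. Without the macrophage-marker wells 13 reached 10 CPM, 1 was higher and 1 lower, and the median was 0.084. The higher genes with all cells were Sat1 and Slc40a1, the latter given with the heme and iron genes below. The polyamine enzyme gene Sat1 had a ratio of 1.30, and 1.01 without the wells. The glutathione-degrading enzyme gene Chac1 stood at 2.14 and 28.0 CPM, a ratio of -3.21, but DiD- cell 28 held 73.5% of its DiD- counts and without that cell the ratio was -1.49.

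The calls in the heme and iron list depended on the macrophage-marker wells. Of its 17 genes, 16 reached 10 CPM, 4 were at least 2-fold higher, 0 were lower and the median was 0.44. The iron exporter gene Slc40a1 was at 79.8 CPM over DiD+ cells and 14.1 CPM over DiD- cells, and at 8.06 and 7.35 CPM without these wells. Spic, which encodes a transcription factor of red pulp macrophages, went from 33.9 to 0 CPM in DiD+ cells when the wells were left out. The hemoglobin scavenger receptor gene Cd163 went from 10.6 to 4.05 CPM in DiD+ and from 2.53 to 0.428 CPM in DiD- cells. Its log2 ratio was thus 1.72 with the wells and 1.82 without them, but without them it was under 10 CPM. Blvrb, described above, also passed 2-fold. Without the wells 13 genes reached 10 CPM, 1 was at least 2-fold higher (Slc11a2, an iron carrier gene named after its value was seen, at 1.01) and the median was 0.26.

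Of 15 ATF4 target genes, which share the control of cystine and amino acid supply with NRF2, 13 reached 10 CPM with a median of -0.0078, and Cebpb (ratio 1.12) and Chac1 passed 2-fold in opposite directions. Cebpb was under 2-fold without DiD+ cell 41 (0.94) or DiD+ cell 29 (0.96). Of 9 genes for selenoprotein synthesis and selenium supply, 7 reached 10 CPM with a median of 0.14, and without the macrophage-marker wells 8 did, with a median of -0.074 and 0 called. Selenop, the plasma selenium carrier gene, was at 243 CPM over DiD+ cells and 6.12 CPM over DiD- cells, and at 4.91 and 2.99 CPM without the macrophage-marker wells. The 16 proliferation genes all reached 10 CPM and all had ratios below 0, with a median of -0.80 (-0.57 without these wells). Mcm3 (-1.58), Top2a (-1.22), Aurkb (-1.14) and Mcm6 (-1.09) were at least 2-fold lower in DiD+ cells, and 1 gene, Mcm3, without the wells. For the other list genes named as past 2-fold with all 60 cells, the ratio stayed past 2-fold when any 1 cell was left out. This alternative was added after seeing the data and did not apply the 10 CPM minimum again.

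**Figure D5:**
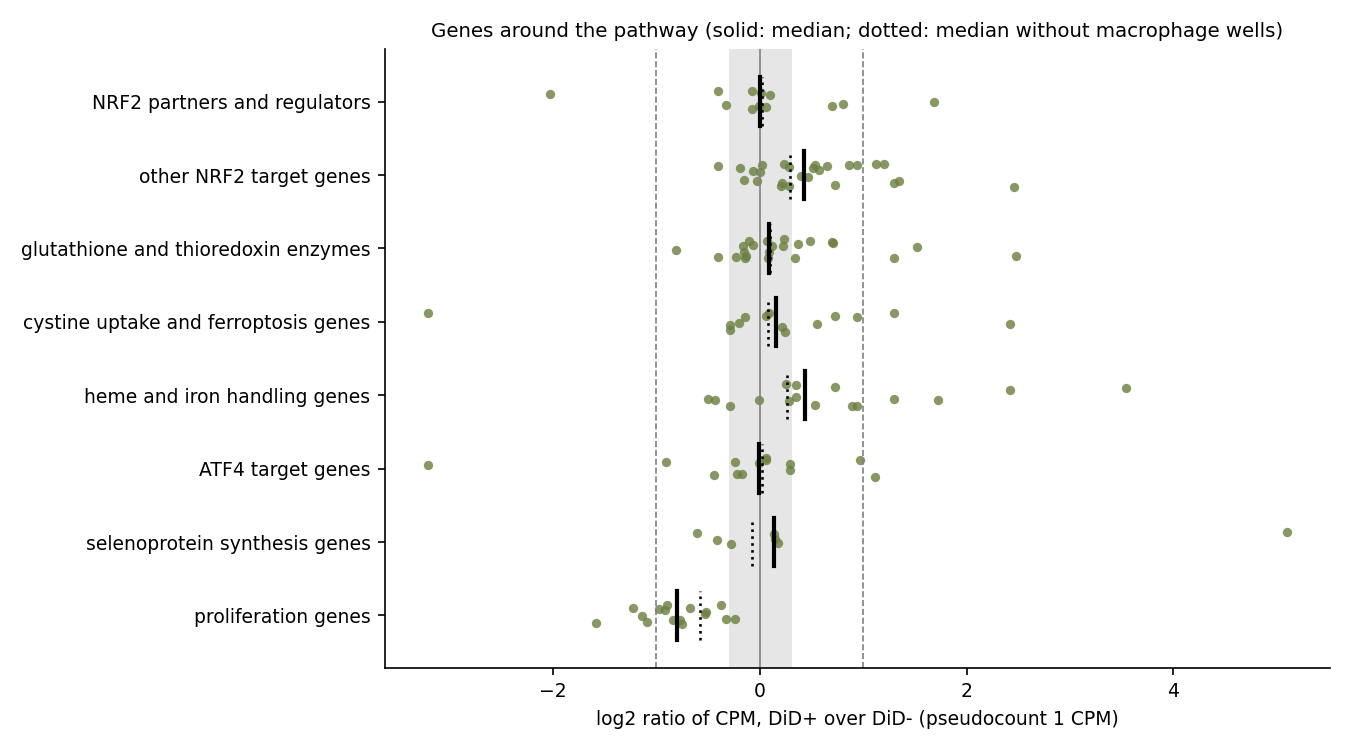
Log2 ratio of DiD+ over DiD- for the genes of 8 lists that reached 10 CPM (points), with the median of each list for all cells (solid) and without the macrophage-marker wells (dotted); the gray band spans the quartiles of all tested genes and the dashed lines mark 2-fold. The medians of the further NRF2 targets and the heme and iron genes are 0.43 and 0.44, and that of the proliferation genes is -0.80.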

How the data were processed

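Single PyMT-Bo1 cells, 32 DiD+ and 28 DiD- per the labels, were the samples. The authors trimmed adapters, aligned reads by STAR to a GRCm38/mm10 genome with added ERCC and transgene sequences, and deposited the estimated counts from RSEM for each gene in each cell, not normalized. Tool versions and the gene annotation are not given in the sources used here. The labels and the methods name different instruments and read lengths. A signal table that the authors normalized with BASiCS was deposited too and used here only as an alternative scaling. It lists 9 of the 10 genes.

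Estimated counts were rounded to whole numbers (96.6% were already whole). Totals left out spike-ins and transgenes, and 47224 of 47729 mouse genes had a symbol. Counts were summed per group and divided by the group total. Gene positions are those of GENCODE for GRCm38. Because a group is 1 sample, no p-value was computed. The named genes are all 10 members, per list those past 2-fold (the 4 largest where more passed), and the 3 genes most alike to each member, of which 1 is not reported here. The members and lists were chosen with earlier results of these data known. Wells that may hold more than 1 cell stayed in all sums unless said otherwise.

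The alternatives were other scalings (mean CPM of cells, BASiCS, spike-ins, edgeR TMM, DESeq2 factors), pseudocounts of 0.1 and 10 CPM, no minimum or 1 CPM, thinning of each cell to 2200000 counts, marker minimums of 1 and 100 counts, and leaving out cells. The ratio step was tested on simulated counts. Python 3.11.15, numpy 2.4.6, pandas 2.3.3, scipy 1.17.1, matplotlib 3.10.9 were used, and edgeR 4.0.16 and DESeq2 1.42.0 in R 4.3.3 gave scaling factors only.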

Additional observations from a re-analysis of the deposited data

How the results depend on the processing

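The number of genes at least 2-fold higher in DiD+ cells was 1 (Hmox1) and of those lower 0 under each alternative and each time 1 cell was left out, except that 0 were higher without the macrophage-marker wells and the well with platelet markers, an alternative added after seeing the data. The median log2 ratio of the 9 genes was 0.13. It was 0.10 for the mean of each cell's CPM, 0.051 for BASiCS values, 0.11 with TMM factors, 0.10 with DESeq2 factors, 0.085 with a pseudocount of 10 CPM and 0.10 after thinning. With spike-in scaling it was -0.31, where the median of all genes was -0.41. It was 0.16 without the macrophage-marker wells, 0.16 without the erythroid wells, 0.12 without both (added after seeing the data) and 0.18 without the macrophage-marker wells and the well with platelet markers. Leaving out 1 cell gave 0.022 (without DiD+ cell 21) to 0.16 (without DiD- cell 92). The cause of these shifts was not tested. Nfe2l2, Srxn1 and Gpx4 fell below 0 with spike-in scaling alone, Keap1 there, with BASiCS values and when single cells were left out, and Slc7a11 in 4 of 14 alternatives. Slc7a11 had 10 or more counts in 9.375% of DiD+ and 3.57% of DiD- cells. No paired analysis was possible because replicate numbers only follow accession order and no test was run. Genes near 0.0251 CPM cannot be compared at this depth.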
